A study of Mus musculus with 16 samples.

Results

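Mural cell genes mark the cells that wrap blood vessels, the pericytes of capillaries and the smooth muscle cells of larger vessels. The 10 genes described here (Acta2, Tagln, Myh11, Cnn1, Des, Mcam, Rgs5, Kcnj8, Pdgfrb and Cspg4) were chosen by symbol. That choice was made with earlier results of these data known, and all 10 genes were present among the 20056 symbols measured. Poly(A)-selected RNA had been sequenced from 2 sorted bone marrow populations of mice, labelled mesenchymal stem cells (MSCs) and osteoblasts (OBs), to ask how miR-9-1 acts in the niche in which lymphocytes form. Each population was taken from 4 wild-type mice, here lettered A to D, and from 4 mice lettered E to H whose Mir9-1 locus had been disrupted with CRISPR/Cas9 (miR-9-1-deficient). This gave 16 libraries in 4 groups of 4, and a letter stands for 1 animal number in both populations. No treatment, age, sex, strain or sort gate is given in the labels, and neither is the number of edited founder lines. Values are normalized counts, which are reads divided by 1 size factor per library, and group values are mean ± SD (n = 4).

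Smooth muscle cells contract through alpha smooth muscle actin and smooth muscle myosin, and their contractile genes are switched on together by serum response factor with its partners of the myocardin family. Pericytes share part of this program and also carry the PDGF receptor beta, through which PDGF-B from endothelial cells recruits them, as well as the proteoglycan NG2 and an ATP-sensitive potassium channel. In bone marrow, cells around arterioles and sinusoids with some of these markers lie close to the stromal cells that support blood formation.

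The libraries differed in several ways that touch these genes. Depth ran from 10148197 to 14246986 reads in MSC libraries and from 15543693 to 18962771 in those of OBs. Mir9-1 was too low to check the genotype: it had 0 reads in all 8 MSC libraries, 0 to 16 reads in wild-type OB libraries and 0 to 3 in deficient ones. The X-inactivation transcript Xist was low in the MSC libraries of A, E and F (291 to 392) and between 11937 and 14158 in the other 5, and the Y-linked gene Ddx3y was high in the same 3 (1848 to 3355, against 29.8 to 78.1). The OB libraries of A, E and F likewise had the lowest Xist in OBs (3720 to 4652, against 6745 to 8053). They also had the highest Ddx3y (1167 to 1939, against 649.0 to 817). Still, every OB library held both, with Xist between 3720 and 8053 and Ddx3y between 649.0 and 1939. OB RNA may therefore not come from the 1 animal named, so it is unknown whether OB libraries are separate samples. This limit holds for every result on OBs.

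Markers of other cells also varied. The mean log2 level of 12 skeletal muscle markers was 6.13 and 7.61 in the MSC libraries of G and H, against 3.57 to 4.97 in the other 6. Of 10 marrow stroma markers the mean was 9.91 and 10.5 in the OB libraries of E and F, against 6.98 to 8.61 in the other 6. The sorts did not separate by osteoblast markers in the direction of their names: 6 of 9 tested were lower in wild-type OBs than in wild-type MSCs (median log2 fold change -1.51). Of 12 endothelial markers 6 were higher and 3 lower in wild-type OBs. Of all genes tested, 34.4% were higher and 35.5% lower there by the same test. Cdh5, which defines endothelium, was at 172 ± 117 in wild-type MSCs and 30.6 ± 13.2 in wild-type OBs. In bulk RNA, fewer mural cells and less RNA per mural cell cannot be told apart.

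Acta2 encodes alpha smooth muscle actin, the main thin filament protein of contractile smooth muscle (chromosome 19, 34241090 to 34255590, minus strand, GRCm38/mm10). Its normalized count in wild-type MSCs was 10879 in A, 2495 in B, 10236 in C and 12088 in D. The deficient MSC libraries held 5047 in E, 4459 in F, 13167 in G and 17968 in H. B thus lay 4.36-fold under the median of the other wild-type libraries, while E and F lay below G and H, and the genotypes overlapped. In OBs the wild-type values were 1663, 461, 429 and 674 in A to D. The deficient values were 4299.9, 1656, 865 and 852 in E to H, with E 4.97-fold above the median of the other 3. The OB level was lower than the MSC level of the same letter in 8 of 8 mice, by 1.17-fold in E and by up to 23.9-fold.

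Acta2 is a textbook target of serum response factor, which binds the CArG box, and the 300 bases around its start (RefSeq, GRCm38.p6, chr19:34255324-34255623, minus strand, 250 bases before and 50 after the start) are shown because 5 other members varied together with it. Capitals mark matches to a CArG box in which at most 1 of the 6 inner bases is G or C, searched on both strands.
Acta2: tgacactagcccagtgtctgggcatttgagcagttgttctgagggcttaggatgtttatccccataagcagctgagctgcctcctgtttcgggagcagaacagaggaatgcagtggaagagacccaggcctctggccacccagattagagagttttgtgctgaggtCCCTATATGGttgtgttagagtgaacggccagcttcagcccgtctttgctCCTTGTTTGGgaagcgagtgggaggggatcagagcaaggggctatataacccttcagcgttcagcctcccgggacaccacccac
The matches CCCTATATGG and CCTTGTTTGG begin 84 and 34 bases before the start. A strict CArG box, with only A or T inside, was in none of the 7 members that had a promoter in the RefSeq table and in 1.63% of 32851 promoters of this length. The looser form, tried after the strict one gave no match, was found in 1 of the 7 (Acta2) and in 9.98% of all promoters. A match is a run of letters and not a measured binding site.

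Tagln encodes transgelin (SM22), an actin-binding protein of smooth muscle (chromosome 9, 45929619 to 45936058, minus strand). Its counts in wild-type MSCs A to D were 6318, 1611, 6433 and 6922, and in deficient MSCs E to H they were 4776, 2138, 7324 and 12169. The lowest library of each genotype was again B or F. In OBs, A to D held 1146, 492, 365 and 548, and E to H held 4659, 799, 719 and 746. E was the only OB library in which Tagln came near its MSC value (1.03-fold lower), and in all other mice it was further below.

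Myh11, the smooth muscle myosin heavy chain and the most restricted marker of contractile smooth muscle (chromosome 16, 14194535 to 14291372, minus strand), had the widest spread of the members in MSCs. The wild-type MSC values were 14786, 1453, 13196 and 19539 in A to D. The deficient MSC values were 7427, 481, 18418 and 26939 in E to H, so the highest was 56.0-fold the lowest within 1 group. F held 38.3-fold less than the median of the other deficient MSC libraries. In OBs it read 2131, 664, 420.4 and 813 in A to D and 6215, 356, 1235 and 1111 in E to H. The wild-type B library of MSCs (1453) lay below the wild-type A library of OBs (2131), so the populations overlapped.

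Cnn1 encodes calponin 1, which binds actin and restrains the myosin ATPase (chromosome 9, 22099216 to 22109630, plus strand), and was a lower member. Wild-type MSCs A to D held 296, 28.5, 159 and 263, and deficient MSCs E to H held 173, 52.8, 249.7 and 299.5. In OBs the values were 47.1, 17.6, 12.1 and 18.4 in A to D. Those of the deficient OBs were 172, 17.6, 12.4 and 36.1, with E 9.78-fold above the median of the other 3. The E libraries of MSCs and OBs were alike in Cnn1 (1.00-fold apart).

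Des encodes desmin, the intermediate filament of muscle and of many pericytes (chromosome 1, 75360329 to 75368579, plus strand). Wild-type MSCs A to D held 433, 141, 446 and 555 and deficient MSCs E to H held 272, 119.9, 701 and 1261. In OBs, A to D held 58.9, 16.9, 20.3 and 41.8 and E to H held 161, 29.3, 42.4 and 54.1. G and H were the highest in deficient MSCs, and desmin is also made in skeletal muscle, whose markers were highest in those 2 libraries. Whether skeletal muscle RNA took part in the Des values was not tested.

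Mcam encodes CD146, an adhesion molecule of pericytes, smooth muscle and endothelium (chromosome 9, 44134469 to 44142727, plus strand). In MSCs the wild-type values were 920.0, 487, 1517 and 2042 and the deficient values 972, 210.1, 1539.8 and 2173. B and F were again the lowest of their groups. The 4 wild-type OB libraries were close together, at 213, 176, 166 and 164. In the deficient OBs, E held 735 and F, G and H held 159.6, 242 and 217.

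**Figure D1:**
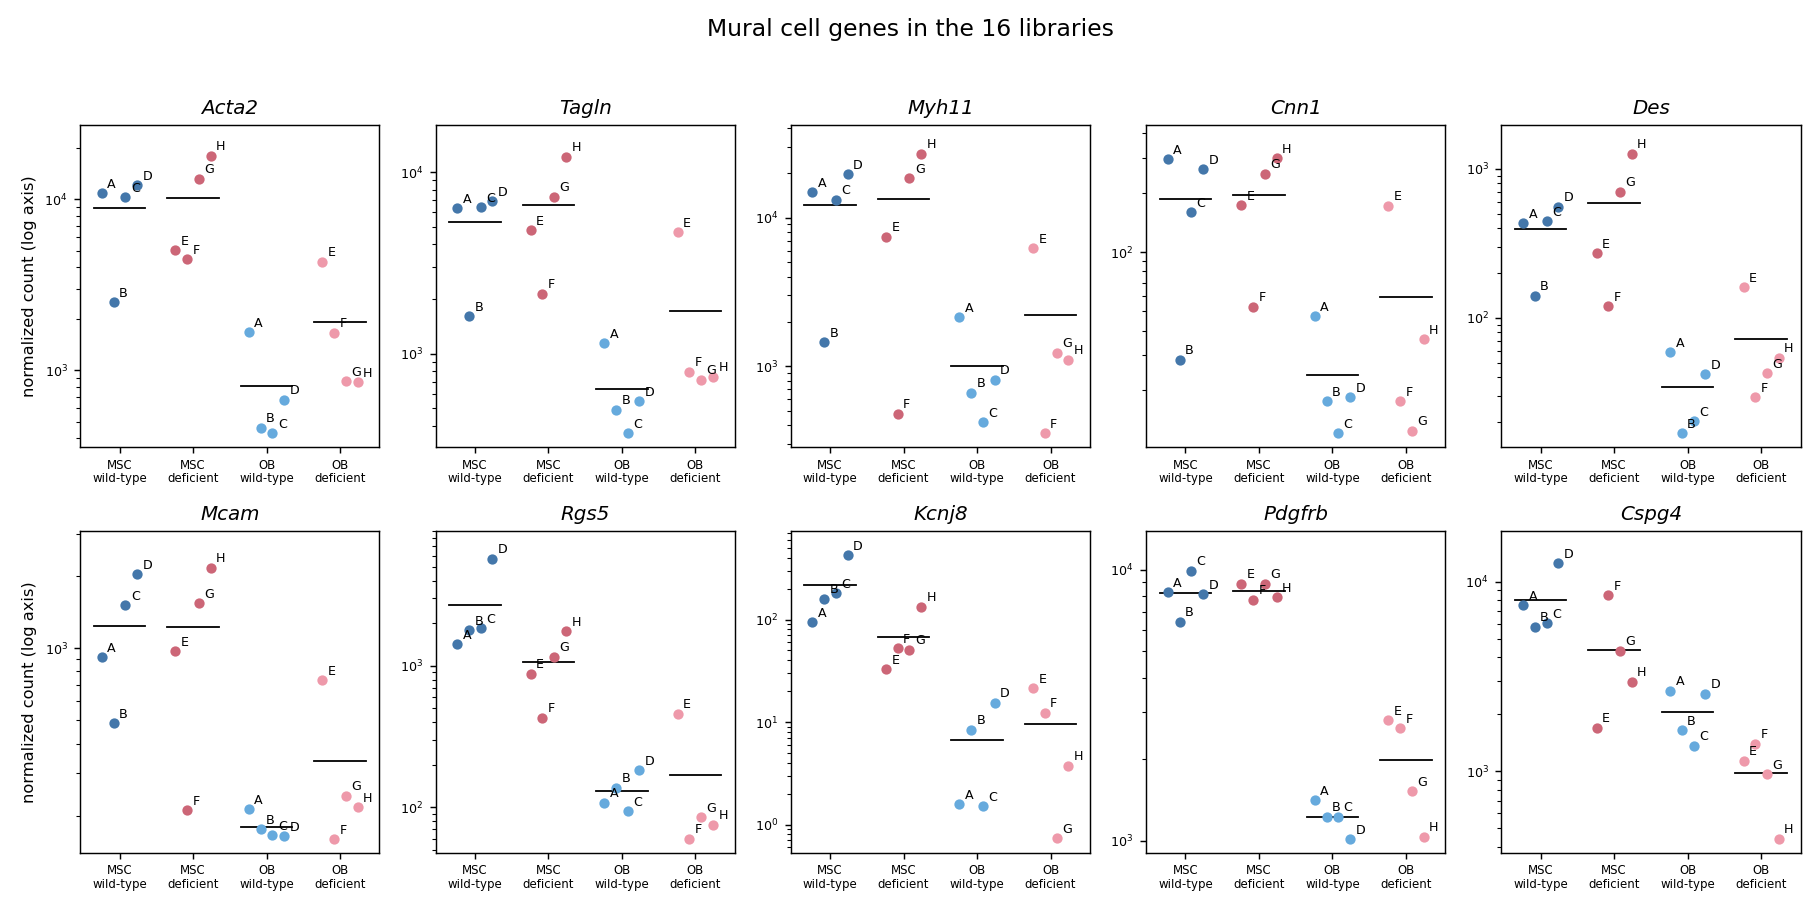
Normalized counts (log axis) of the 10 genes in each of the 16 libraries, by population and genotype. Points are libraries with their mouse letter and bars are arithmetic group means. B and F lie lowest in MSCs for Acta2, Tagln, Myh11, Cnn1, Des and Mcam, and E lies highest in OBs for all 10 genes except Cspg4.

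Rgs5, a regulator of G-protein signaling widely used as a pericyte marker (chromosome 1, 169655501 to 169695813, plus strand), followed another order in wild-type MSCs. Wild-type MSCs A to D held 1429, 1793, 1844 and 5753, with D 3.21-fold above the median of the others. Deficient MSCs E to H held 883, 429, 1159 and 1761, rising from F through E and G to H as for the genes described above. The groups overlapped, since the deficient H library (1761) was above the wild-type A library, although 3 of 4 deficient libraries were below all 4 wild-type ones. In OBs, A to D held 108, 137, 93.4 and 183, and E to H held 459.9, 59.9, 84.8 and 75.2.

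Kcnj8 encodes Kir6.1, the pore of the ATP-sensitive potassium channel of pericytes and vascular smooth muscle (chromosome 6, 142564837 to 142571614, minus strand), and was the least abundant member per kilobase in 3 of the 4 groups. Wild-type MSCs A to D held 94.4, 159, 181 and 427 and deficient MSCs E to H held 32.9, 52.8, 51.0 and 133. D and H were the highest of their groups, as they were for Rgs5, Acta2, Tagln, Myh11, Des and Mcam. The genotypes overlapped through H alone. In OBs the gene was at 1.57, 8.45, 1.51 and 15.4 in A to D and at 21.3, 12.4, 0.731 and 3.76 in E to H. These OB values stand for 1 to 29 reads, and 3 reads are worth 1.95 to 2.36 normalized counts in OBs, so several lie at the counting limit (counting error only).

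Pdgfrb encodes the PDGF receptor beta, which pericytes need for recruitment and which many stromal cells also carry (chromosome 18, 61045150 to 61085061, plus strand). It was the most even member in MSCs, with 8276, 6444, 9949.9 and 8148 in wild-type and 8907, 7750.4, 8889 and 7940.2 in deficient libraries. Neither B nor F stood apart by as much as for Acta2: B lay 1.28-fold and F 1.15-fold under the median of the others. In OBs, A to D held 1409, 1226, 1226 and 1013, and E to H held 2785, 2609, 1524 and 1036. E and F, the OB libraries with the highest marrow stroma markers, were the highest for Pdgfrb. Whether stromal RNA took part in this was not tested.

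Cspg4 encodes the proteoglycan NG2, a surface marker of pericytes and of some other precursor cells (chromosome 9, 56865033 to 56899870, plus strand). The wild-type MSCs A to D held 7518, 5772, 6037 and 12542, and the deficient MSCs E to H held 1699, 8457, 4329 and 2959. F, which was lowest for the contractile genes, was the highest deficient MSC library for Cspg4, and the other 3 deficient libraries were below all wild-type ones. In OBs, A to D held 2657, 1643, 1364 and 2563, and E to H held 1138, 1398, 961 and 439.7. Here again 3 of 4 deficient libraries were below all 4 wild-type ones, with F above the wild-type C library.

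Levels of different genes are compared per kilobase of exon (mean normalized count per kb ± SD). Acta2 was the highest member in all 4 groups, at 4064 ± 1983 in wild-type MSCs, followed there by Tagln (2676 ± 1251), Myh11 (1611 ± 1011) and Pdgfrb (1498 ± 261). None of these 4 was apart from its neighbour in that order by more than their SDs. Pdgfrb was apart from the next gene, Cspg4 (668 ± 264), and Mcam (371 ± 203) from Des (105 ± 47.1), and Kcnj8 (84.5 ± 57.2) and Cnn1 (68.2 ± 44.0) came last. In wild-type OBs, Acta2 (367 ± 265) was again followed by Tagln (321 ± 175), and Mcam (53.6 ± 6.78) was apart from Rgs5 (28.7 ± 8.69) and Rgs5 from Des (9.19 ± 5.24), but no other neighbours were. The deficient OBs had no neighbours apart beyond their SDs.

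Between the populations of wild-type mice, all 10 genes were lower in OBs than in MSCs. Called means an adjusted p under 0.05 in limma, and 10 of 10 members were called lower, where 35.5% of the 14696 genes tested were called lower. The members' median log2 fold change was -3.18 and that of all genes 0.01. Kcnj8 had a log2 fold change of -5.05 ± 0.69 (SE, adjusted p = 6.56e-05) and Rgs5 of -4.17 ± 0.38 (adjusted p = 3.1e-06). The contractile genes followed, with Des at -3.48 ± 0.49, Acta2 at -3.47 ± 0.53 (11.1-fold lower), Myh11 at -3.37 ± 0.75, Tagln at -2.99 ± 0.47 and Cnn1 at -2.67 ± 0.70. Pdgfrb, at -2.74 ± 0.13 (6.70-fold lower, adjusted p = 3.08e-08), had the smallest error. Mcam stood at -2.60 ± 0.36, and Cspg4, at -1.94 ± 0.27 (3.83-fold lower), changed least. The 4 libraries of each population did not overlap for 8 of the 10, all but Myh11 and Cnn1, where 32.9% of genes tested were lower without overlap. The marrow stroma markers moved the same way, 10 of 10 being lower in wild-type OBs (summed level 29149 to 65057 in MSCs and 3474 to 8008 in OBs, none at 0), and their part in the result was not tested.

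In the deficient mice the same comparison called 8 of 10 members lower, where 30.6% of 14692 genes were called lower. Kcnj8 changed by -3.08 ± 0.81, Rgs5 by -3.01 ± 0.64 (adjusted p = 0.00288), Des by -2.82 ± 0.74, Acta2 by -2.50 ± 0.59, Tagln by -2.21 ± 0.67 and Cnn1 by -2.20 ± 0.81 (adjusted p = 0.0405). The call of Cnn1 was fragile: it held in 10 of 20 alternatives and was lost in 6 of the 8 fits that left out 1 library, all but those without F of MSCs or E of OBs. Tagln was no longer called without the MSC library of H (adjusted p = 0.0525) or the OB library of G (0.0535). For Pdgfrb the change was -2.18 ± 0.28 and for Cspg4 -2.02 ± 0.49. Myh11 (-2.30 ± 1.24, adjusted p = 0.135) and Mcam (-1.69 ± 0.71, adjusted p = 0.0620) did not pass. With the mouse as a replicate block both passed (Myh11 adjusted p = 0.0200, Mcam 0.0147), and 10 of 10 were called. The libraries did not overlap for 4 members (Kcnj8, Pdgfrb, Cspg4 and Acta2), where 27.1% of genes were lower without overlap.

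Fewer members were called without the MSC libraries of G and H, which were the highest in contractile genes and in skeletal muscle markers. The 12 skeletal muscle markers summed to 460 to 5598 in deficient MSCs and 124 to 292 in deficient OBs, with 0 or 1 of them at 0 in MSCs and up to 5 in OBs. Without G and H, which leaves fewer MSC libraries, 3 of 10 members were called lower, where 23.6% of all genes were. With the skeletal muscle level as a covariate 1 was (Pdgfrb), where 15.9% of genes were called lower. The mean log2 level was 4.10 to 7.61 in deficient MSCs and 2.13 to 3.58 in deficient OBs. That fit therefore cannot fully separate the covariate from the population. Leaving out 1 library gave 6 members (without the MSC library of H or the OB library of G) to 10 (without the MSC library of F). Without the OB library of E 9 of 10 members were called with a median log2 fold change of -2.98, against -2.25 with it. Within mice, the lowest MSC to OB ratios came from E for 8 of the 10 genes and from F for Mcam (1.32-fold) and Pdgfrb (2.97-fold).

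**Figure D2:**
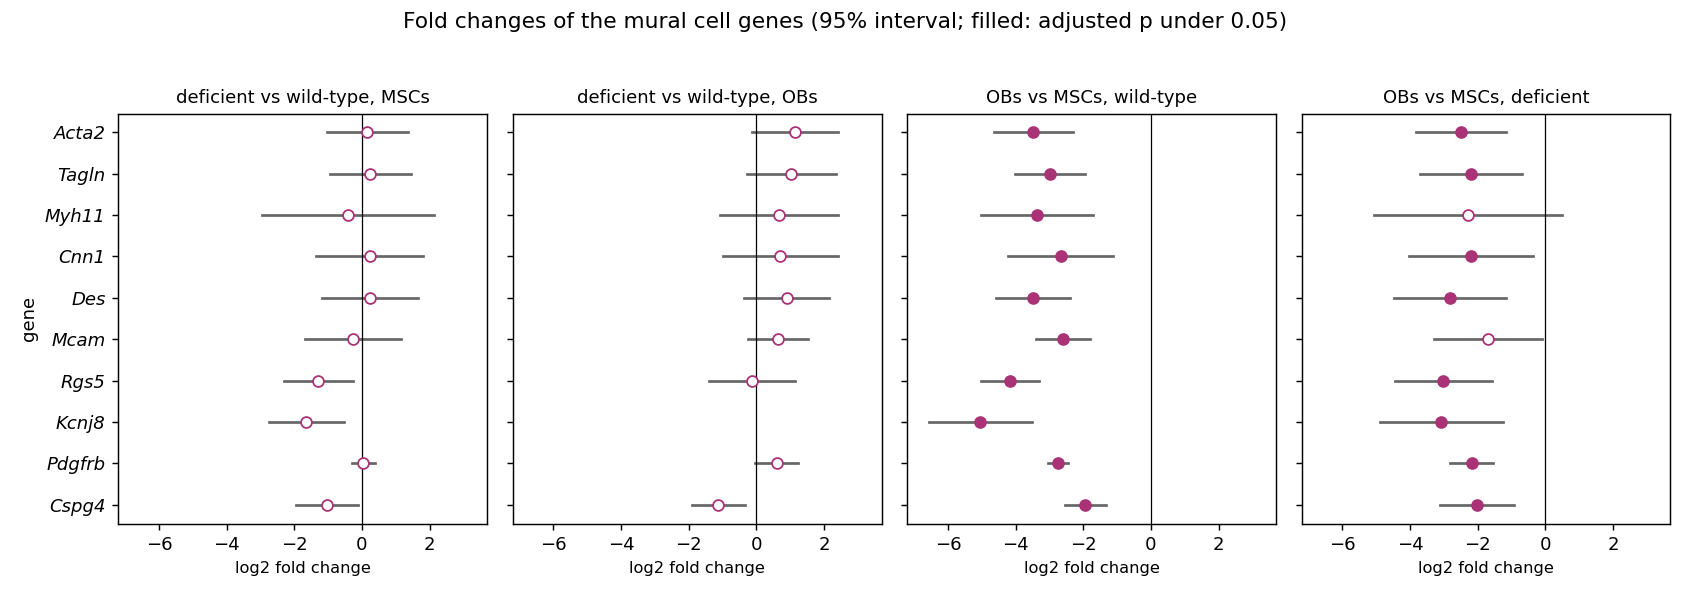
Log2 fold changes of the 10 genes in the 4 comparisons, with 95% intervals from limma. Filled points have an adjusted p under 0.05: 10 in wild-type and 8 in deficient OBs against MSCs, and 0 in both comparisons of genotypes (Kcnj8 was too low to be tested between genotypes in OBs).

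Between genotypes in MSCs no member passed. Of the 10 tested, 0 were called, where 1.06% of 14964 genes were, 0 had groups without overlap (12.4% of genes), and 3 had an unadjusted p under 0.05 in limma, where 22.8% of genes had one. edgeR called 0 members (0.982% of genes) and DESeq2, which called 7.89% of genes, called 1, Kcnj8 (log2 fold change -1.66, adjusted p = 0.0249). Kcnj8 differed by -1.64 ± 0.51 (215 ± 146 in wild-type, 67.4 ± 44.6 in deficient libraries, adjusted p = 0.109 in limma, from 0.0249 to 0.256 over the alternatives). For Rgs5 the difference was -1.28 ± 0.47 (2705 ± 2040.3 against 1058 ± 557, adjusted p = 0.145) and for Cspg4 -1.04 ± 0.42 (7967 ± 3145 against 4361 ± 2934, adjusted p = 0.173). Cspg4 was called without the MSC library of F (-1.44, adjusted p = 0.0165 in limma), a fit that called 15.3% of all genes.

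The other 7 members gave wide intervals in MSCs, apart from Pdgfrb. Its deficient to wild-type ratio was 1.03, with a 95% interval of 0.814 to 1.30. The ratio of Acta2 was 1.12 (0.486 to 2.59), that of Tagln 1.19 (0.518 to 2.74) and that of Des 1.18 (0.437 to 3.16). Cnn1 lay at 1.17 (0.391 to 3.53) and Mcam at 0.838 (0.314 to 2.24). Myh11 was the least certain, at 0.752 (0.130 to 4.35), and its sign went against its means (12243 ± 7682 in wild-type, 13316 ± 11705 in deficient libraries), since the log scale gives the low F library more weight. The members' median log2 fold change was -0.11, against -0.03 over all genes.

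Xist level split the MSC libraries across the genotypes, with 1 wild-type and 2 deficient libraries low and 3 wild-type and 2 deficient libraries high (above or below 1000, a limit set after the values were seen). Rgs5 was lower in the deficient libraries on both sides: 429 to 883 against 1429 among the low, and 1159 to 1761 against 1793 to 5753 among the high. Kcnj8 was likewise lower on both sides, at 32.9 to 52.8 against 94.4 and at 51.0 to 133 against 159 to 427. Acta2, Tagln and Des went opposite ways: lower than the wild-type library among the Xist-low ones and above all 3 wild-type libraries among the Xist-high ones. The 2 Xist-high deficient libraries are G and H, which also stand apart in skeletal muscle markers. These splits hold too few libraries for a test. With Xist as a covariate, Rgs5 differed by -1.04 ± 0.38 (adjusted p = 0.164) and Kcnj8 by -1.39 ± 0.43 (adjusted p = 0.128).

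In OBs, 0 of 9 members were called between genotypes, where 0.0281% of 14229 genes were, 0 had groups without overlap (5.47% of genes), and 1 had an unadjusted p under 0.05 in limma (8.95% of genes). edgeR also called 0, and so did DESeq2, which gave no adjusted p for some of the members. The member with an unadjusted p under 0.05 in limma was Cspg4, at 2057 ± 650.1 in wild-type and 984 ± 405 in deficient libraries (-1.12 ± 0.35, adjusted p = 0.379, from 0.00649 to 0.781 over the alternatives). It was called with the marrow stroma level as a covariate (-1.53 ± 0.22, adjusted p = 0.00649), where 1.79% of genes were called. The contractile genes had higher means in deficient OBs without passing: Acta2 differed by 1.14 ± 0.56, Tagln by 1.04 ± 0.59, Des by 0.90 ± 0.56, Cnn1 by 0.71 ± 0.76 and Myh11 by 0.66 ± 0.78. The marrow stroma markers also had higher means, 9 of 10 being above 0 (median 0.98, 0 called, summed level 2256 to 38620 in deficient and 3474 to 8008 in wild-type OBs, none at 0), and their part in these differences was not tested. Pdgfrb differed by 0.60 ± 0.28, Mcam by 0.65 ± 0.40 and Rgs5 by -0.13 ± 0.57. The members' median was 0.66 (all genes -0.02) and 0.18 without the OB library of E. Kcnj8 was below the level set for testing.

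Whether the genotype differences in OBs and MSCs were unequal was tested over all 16 libraries, which the comparisons above share. None of the 10 members passed, where 0.0129% of 15556 genes did, and 0 had an unadjusted p under 0.05 in limma, where 11.5% of genes had one. Neither edgeR nor DESeq2 called a member. As OBs minus MSCs, the largest value was that of Kcnj8 (1.96 ± 1.13, adjusted p = 0.517), then Rgs5 (1.16 ± 0.81) and Myh11 (1.07 ± 1.59), and Cspg4 had the smallest (-0.09 ± 0.61).

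**Figure D3:**
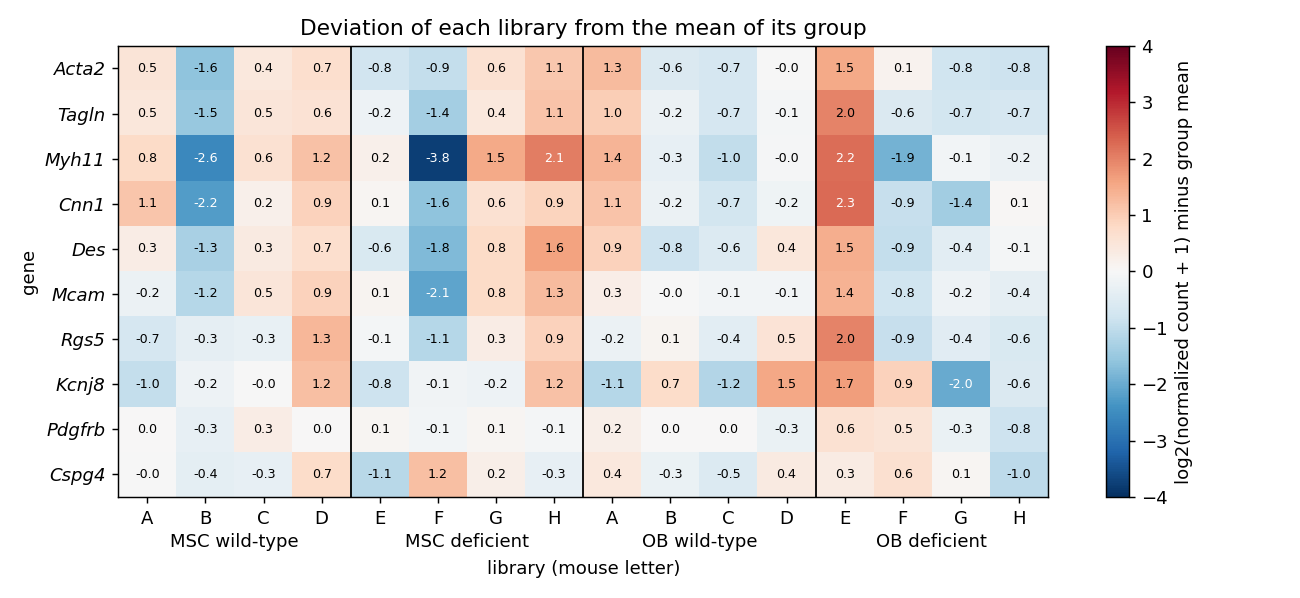
Deviation of each library from the mean of its group, on the scale of log2(normalized count + 1), for the 10 genes (rows) and 16 libraries (columns). The contractile genes, Des and Mcam are low together in the MSC libraries of B and F (Myh11 -3.75 in F) and high together in the OB library of E, while Pdgfrb varies by less than 0.4 within MSCs.

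The libraries' spread was shared between members. Over the 8 MSC libraries, the 15 pairs among Acta2, Tagln, Myh11, Cnn1, Des and Mcam had a Pearson r between 0.799 and 0.966 on the log2 scale (Spearman rho 0.714 to 0.976). In an exact permutation test 12 of the 15 passed, adjusted over 90 relations in both populations. The share of pairs among all genes that would pass was not tested. It is therefore unknown whether these genes vary together more than other genes do. Acta2 and Tagln had r = 0.956 (rho = 0.976, exact adjusted p = 0.00223 for r and 0.0119 for rho) and r = 0.900 without the 2 libraries farthest from the median of Acta2. For Myh11 and Mcam r was 0.966 (rho = 0.929, exact adjusted p = 0.00797 and 0.0183) and 0.786 without the 2 farthest. The lowest such r without 2 libraries was 0.287, so for some pairs the relation rested on those libraries.

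Rgs5 and Kcnj8 varied together in MSCs (r = 0.879, rho = 0.929, exact permutation adjusted p = 0.0234 and 0.0183, r = 0.991 without the 2 farthest libraries). Neither was tied to the 6 genes above by that test: r was 0.365 to 0.705 for Rgs5 and 0.0811 to 0.414 for Kcnj8. These r pool the genotypes. With genotype means taken out, Rgs5 had r = 0.781 with Kcnj8 and 0.563 (Cnn1) to 0.828 (Mcam) with the 6, without a test. Rgs5 was therefore not closer to Kcnj8 than to all of the 6. With the genotypes pooled, Cspg4 had r between -0.216 and 0.0252 with the 6, and Pdgfrb between 0.447 and 0.644. With genotype means taken out, Cspg4 had r from -0.330 (Mcam) to 0.103 (Acta2) in MSCs. The same r in OBs was 0.173 (Mcam) to 0.654 (Acta2), and 0.726 with Pdgfrb against -0.00857 when pooled, without a test. In OBs the 6 had r between 0.724 and 0.945, and 11 of the 15 pairs passed the exact test. The share among pairs of all genes was not tested in OBs either. Rgs5 with Kcnj8 did not pass there (r = 0.580, exact adjusted p = 0.2505). Acta2 and Tagln had r = 0.945 (rho = 0.976, exact adjusted p = 0.00223 and 0.0119) and 0.901 without the 2 farthest libraries. For Acta2 and Mcam r was 0.770 (rho = 0.452, exact adjusted p = 0.0983 and 0.634) and dropped to 0.0888, so it rested on those libraries.

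**Figure D4:**
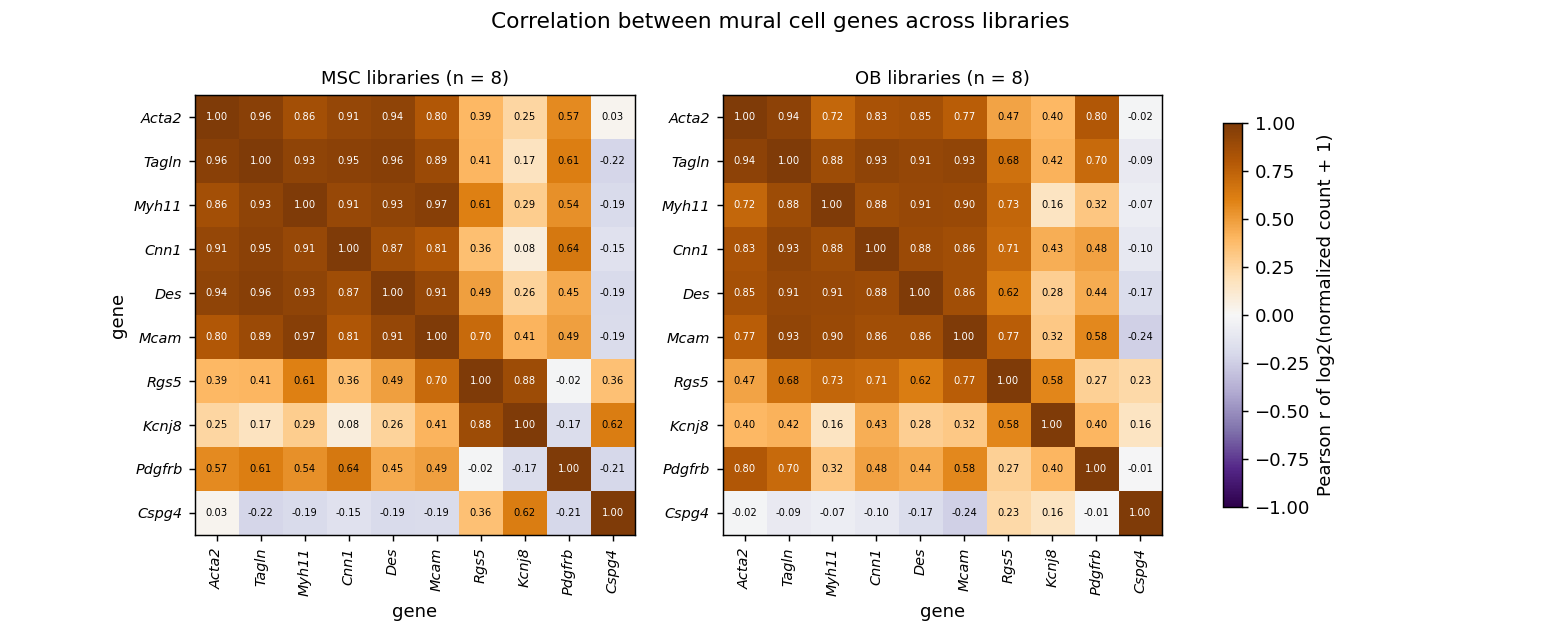
Pearson r between the 10 genes over the 8 MSC libraries (left) and the 8 OB libraries (right), on log2(normalized count + 1). The block of Acta2, Tagln, Myh11, Cnn1, Des and Mcam lies between 0.799 and 0.966 in MSCs, and Rgs5 with Kcnj8 reaches 0.879 there. Cspg4 is near 0 or negative with most others. These r pool the genotypes: with genotype means taken out, Cspg4 with Pdgfrb is 0.726 in OBs.

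Most other genes of mural cells were also lower in OBs, where 35.5% (wild-type) and 30.6% (deficient) of all genes were called lower. Of 16 further contractile genes, 16 of 16 tested were lower in wild-type OBs (median -3.15). They include the caldesmon gene Cald1 (-3.16 ± 0.18, from 7655 ± 1569 to 858 ± 195), the myosin kinase gene Mylk (-2.43 ± 0.22) and Nexn, an actin filament protein (-2.85 ± 0.26). In deficient mice 14 of the 16 were lower, among them the smoothelin gene Smtn (-2.09 ± 0.30), the integrin gene Itga7 (-2.84 ± 0.55) and Cald1 (-2.34 ± 0.47), while Actg2 and Lmod1 did not pass. Between genotypes 0 of 16 passed in MSCs and 0 of 16 in OBs by limma (smallest p: Ppp1r14a -0.89 ± 0.43, adjusted p = 0.246, and Nexn 0.87 ± 0.41, adjusted p = 0.567). In OBs 15 of the 16 had a higher log2 mean in deficient libraries, where 43.8% of all genes did, and the E library was the highest for the list (mean log2 9.59, against 7.10 to 8.20 in the other 7).

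Of 16 further pericyte genes, 15 were lower and 1 was higher in wild-type OBs (median -3.09), and 13 were lower and 1 higher in deficient ones. The extracellular matrix gene Aspn (-3.44 ± 0.09), the aminopeptidase gene Anpep (-2.99 ± 0.11) and the metalloreductase gene Steap4 (-2.75 ± 0.18) had the smallest p among those lower in wild-type mice. Anpep (-2.49 ± 0.24), the vitronectin gene Vtn (-3.81 ± 0.52) and the transcription factor gene Tbx18 (-2.99 ± 0.44) had the smallest p in deficient mice. The exception was Angpt1, the angiopoietin 1 gene, which was higher in OBs, at 835 ± 156 in MSCs and 5737 ± 443 in OBs of wild-type mice (2.79 ± 0.12) and at 666 ± 124 and 5288 ± 719 in deficient mice. Of all genes 34.4% and 29% were called higher in these comparisons. Between genotypes 0 of 16 passed in MSCs by limma, with 13 of 16 below 0 where 52.7% of all genes were (median -0.42), and Ndufa4l2, a hypoxia-responsive mitochondrial gene, had the smallest p (2263 ± 1346 against 789.5 ± 653, -1.79 ± 0.58, adjusted p = 0.117). Markers of some other cells also lay mostly below 0 in MSCs: 9 of 12 endothelial (median -0.42) and 8 of 10 marrow stroma markers. So did 8 of 8 neutrophil, 7 of 9 osteoblast (2 called) and 6 of 7 B-lineage markers (3 called). Others lay mostly above 0: 8 of 11 skeletal muscle (median 0.57), 5 of 8 erythroid and 3 of 5 Schwann cell and glia markers. In OBs 0 of 13 pericyte genes passed (Cox4i2, a cytochrome oxidase subunit, -1.37 ± 0.45, adjusted p = 0.389).

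The regulators of the smooth muscle program moved in both directions, and so did all genes. Of all genes tested, 35.5% were called lower and 34.4% higher in wild-type OBs, and 30.6% and 29% in deficient ones. Of 9 tested in wild-type mice, 6 were lower and 1 was higher in OBs: Klf4 (-2.52 ± 0.11), a repressor of contractile genes, Tead1 (-2.42 ± 0.17) and Mkl1, also called Mrtfa (-0.55 ± 0.10), a cofactor of serum response factor, fell, and Mef2c, a muscle transcription factor, rose (0.93 ± 0.13). In deficient mice, 5 of 10 were lower and 1 was higher, with Klf4 (-2.41 ± 0.25), Tead1 (-2.12 ± 0.45) and Foxf1 (-2.61 ± 0.56) lower and Mef2c higher (1.20 ± 0.19). Srf, the serum response factor gene itself, did not pass between the populations of either genotype (0.10 and 0.22, adjusted p = 0.255 and 0.136). Between genotypes 0 of 10 passed in MSCs, where Tead1 came nearest and its groups did not overlap (1528 ± 117 in wild-type, 2250.0 ± 479 in deficient libraries, 0.54 ± 0.15, adjusted p = 0.0886). In OBs 0 of 9 passed (Mef2c -0.28 ± 0.09, adjusted p = 0.379).

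Among 10 genes of PDGF and TGF-beta signals, 7 were lower and 2 higher in OBs, in both genotypes. The shares of all genes were 35.5% lower and 34.4% higher in wild-type and 30.6% and 29% in deficient mice. The receptor gene Pdgfra changed by -4.02 ± 0.22 in wild-type and by -3.53 ± 0.30 in deficient mice, and the TGF-beta receptor gene Tgfbr2 by -1.15 ± 0.06 and -0.97 ± 0.13. The ligand gene Pdgfc changed by -2.73 ± 0.22 in wild-type mice and Tgfb2 by -2.64 ± 0.30 in deficient mice. Eng, the endoglin gene, rose by 1.18 ± 0.07 and 1.28 ± 0.13, and the ligand gene Tgfb1 by 0.86 ± 0.07 and 1.06 ± 0.23. Pdgfb, the ligand that recruits pericytes, did not pass (0.55 and 1.68, adjusted p = 0.232 and 0.0732). Between genotypes 0 of 10 passed in either population, and Pdgfra had the smallest p in both: 0.66 ± 0.19 in MSCs (5740.3 ± 1254 against 8976 ± 1499, adjusted p = 0.0899) and 1.15 ± 0.33 in OBs (359 ± 112 against 837 ± 388, adjusted p = 0.349). For the difference between the genotype effects 0 genes of these 4 lists passed by limma, and the smallest p values were those of Vtn (1.86 ± 0.94), Nexn (0.84 ± 0.53), Mef2c (0.27 ± 0.24) and Tgfbr2 (0.18 ± 0.14).

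**Figure D5:**
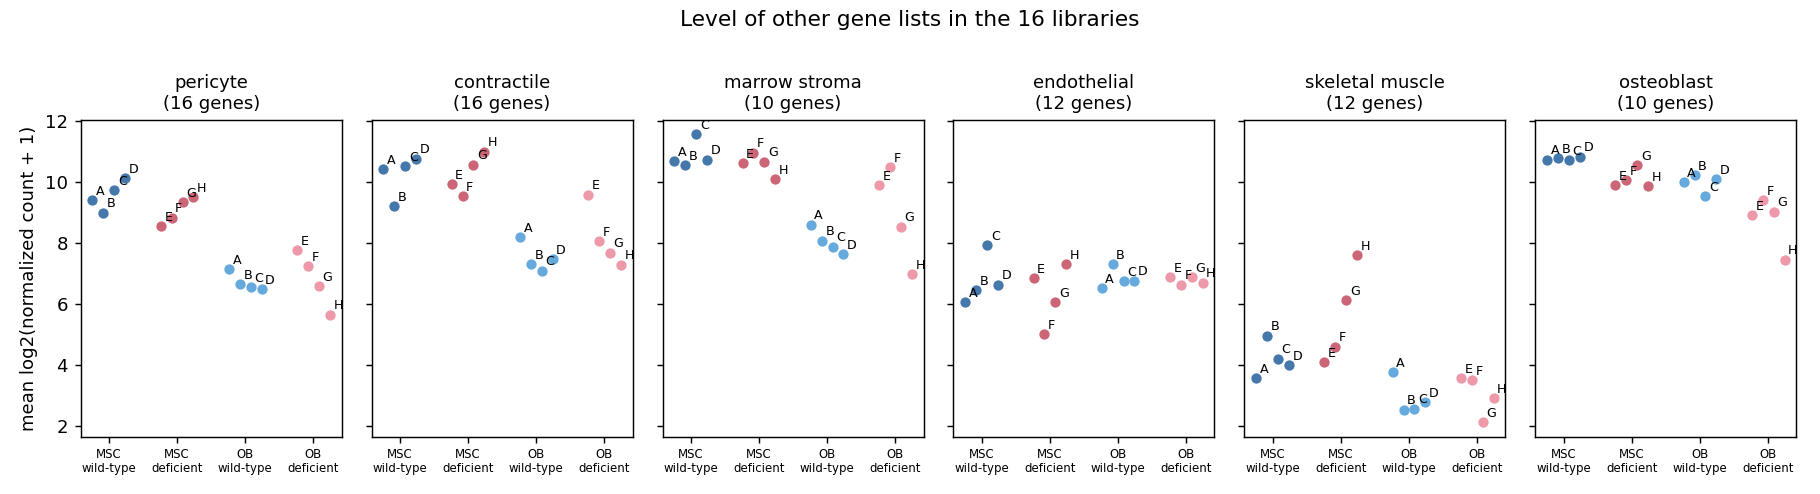
Mean log2(normalized count + 1) of 6 gene lists in each library, with mouse letters. In wild-type mice the contractile and marrow stroma lists are lower in all OB libraries than in all MSC libraries. In deficient mice they overlap: the OB library of E (contractile list, 9.59) lies above the MSC library of F (9.54), and the OB library of F (marrow stroma list, 10.5) above the MSC library of H (10.1), while G and H are highest for skeletal muscle in MSCs (6.13 and 7.61).

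The genes whose log2 level was most like that of 3 members were ranked by Pearson r over the 16 libraries, among 15546 genes. This r mixes the difference between the populations with the spread within them. Nearest to Acta2 were Myl9, the smooth muscle myosin light chain (r = 0.996, and 0.986 and 0.987 within MSCs and OBs), Tpm2, a tropomyosin (0.983), E130310I04Rik (0.977), Mark1 (0.967) and Kcnab1 (0.967). Nearest to Rgs5 were Itga7 (0.966), Csrp2 (0.959), Col18a1 (0.958), Parm1 (0.957) and Abcc9 (0.954), the last being the partner subunit of the Kcnj8 channel. Abcc9 had r = 0.968 with Rgs5 within MSCs and 0.554 within OBs. Nearest to Pdgfrb were Prickle2 (0.994), Cped1 (0.993), Pros1 (0.993), Afap1 (0.993) and Fos (0.992), and for these r within MSCs was only 0.328 to 0.748.

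Since the mice lack Mir9-1, the seed of miR-9-5p was searched in the members' 3′ UTRs. The mature sequence (RefSeq, GRCm38.p6, chromosome 3, 88215613 to 88215635, plus strand) is shown with its seed, bases 2 to 8, in capitals, and Mir9-2 and Mir9-3 give the same mature sequence.
miR-9-5p: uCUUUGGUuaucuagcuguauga
In each gene's longest 3′ UTR of GENCODE M21 (GRCm38), the complement of bases 2 to 7 of the miRNA, CCAAAG, was searched. Matches are shown on the transcript strand, with the bases that pair with the seed, and a following A of an 8mer, in capitals.
Rgs5 8mer: agcaattgaaaACCAAAGAaaaagcttt
Rgs5 6mer: agtagtctagttCCAAAGgaaaagccaa
Cspg4 7mer: gttgagatgggACCAAAGcccttacgct
Cspg4 6mer: cctggggcattcCCAAAGtcctctactc
Acta2 6mer: aatcattcctgcCCAAAGctttgatttg
The Rgs5 matches lie on chromosome 1 at 169695082 to 169695109 and 169693468 to 169693495, those of Cspg4 on chromosome 9 at 56899792 to 56899819 and 56899737 to 56899764, and that of Acta2 on chromosome 19 at 34241569 to 34241596. Pdgfrb also held 1 8mer match. A match of 7 or 8 bases was found in 3 of 10 members (Rgs5, Cspg4 and Pdgfrb), where 20.3% of 20993 genes had one, and a match of 6 bases in 4 of 10, where 34.5% had one. The median 3′ UTR was 1190 bases long among members and 961 among all genes. Beside these matches, Rgs5 and Cspg4 had log2 differences of -1.28 ± 0.47 and -1.04 ± 0.42 in deficient MSCs and Pdgfrb of 0.04 ± 0.15, none of which passed.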

How the data were processed

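Poly(A)-selected RNA from sorted MSCs and OBs was sequenced in 16 libraries, 4 groups of 4. The deposited table holds 1 signal value per gene symbol and library, a normalized count. Each deposited column is a set of whole reads divided by a constant: multiplied back, 100% of values were whole within 0.01 read, which recovered the reads. Per the submitters' processing notes the build is mm10 and DESeq2 1.24.0 was used. For the aligner, counter, strand setting and annotation: not given in the sources used here. 0 columns of per-sample values were left unused.

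log2(normalized count + 1) was fitted with limma 3.58.1 (empirical Bayes with trend, R 4.3.3) on the libraries of each comparison, for genes that reached 10 normalized counts in 4 or more libraries. Tests were two-sided with Benjamini-Hochberg adjustment over all genes tested (threshold 0.05). Fold changes are on this scale, which understates those of low genes. edgeR 4.0.16 and DESeq2 1.42.0 on recovered reads were among the alternatives, and those without MSC libraries B and F and with Xist as a covariate were added after the data were seen. Nothing says that libraries of a group are from separate cultures or litters, so p-values measure the spread between these libraries. Replicate pairs differed by more than sampling noise.

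The members, gene lists and the split by Xist were chosen with earlier results of these data known. All 10 members are named. Of each of the 4 other mural lists the text names up to 3 passing genes per direction with the smallest p, or the 1 with the smallest p where none passed, and the 5 genes most like Acta2, Rgs5 and Pdgfrb. Srf, Pdgfb, Actg2 and Lmod1 and markers of other cells were named after their values were seen. 3 list genes were matched through RefSeq synonyms. Exon lengths and UTRs are from GENCODE M21.

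The animal numbers of the labels pair the MSC and OB libraries, if OB RNA is from the animal named. Deviations from the group means of the libraries of 1 number correlated with r from 0.0241 to 0.285 over 15556 genes, and for 5 of 8 the best match was the own number. On simulated data with known changes, 2-fold changes passed for 30% of genes between genotypes in MSCs, 75% in OBs, 60% and 39% between populations in wild-type and deficient mice and 32% for the difference of effects. Low genes were not changed there, and each gene was drawn independently. The rates therefore do not give the power for members that vary together. Intervals and limits of 3 reads (95%) cover counting error only.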

Additional observations from a re-analysis of the deposited data

Results flagged for a closer look

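7 of the 40 combinations of gene and group had a library whose gap to the nearest other library, divided by the range of its group of 4, was above Dixon's critical value at 95% for 4 samples. Chance gives about 1 in 20 for independent, normally distributed samples. These counts were not log-transformed and the members vary together, so that share cannot be set against the one found here. In wild-type MSCs these were Rgs5 at 5753 in D, above the rest, and Tagln at 1611 in B, below the rest. The other 5 were all the OB library of E among deficient OBs: Rgs5 at 459.9, Tagln at 4659, Myh11 at 6215, Cnn1 at 172 and Mcam at 735, each the highest of its group. That library also had the highest mean log2 level of the 16 further contractile genes in OBs (9.59) and the second highest of the marrow stroma markers (9.91).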

How the results depend on the processing

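All 10 members stayed lower in wild-type OBs than in MSCs under each alternative, except that with a filter of 50 Cnn1 was not tested. Quantile normalization moved the median of all genes there from 0.01 to 0.17. Between genotypes in MSCs, 1 member passed with array weights, with DESeq2 and without the MSC libraries of B and F, and 0 to 1 when 1 library was left out. In OBs 1 passed with the marrow stroma level as a covariate. Between the populations of deficient mice 3 passed without MSC libraries G and H, where 23.6% of genes were called lower. With the skeletal muscle covariate 1 passed (15.9% of genes), and with 1 library left out 6 to 10 did.

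Of all genes, the genotype comparison in MSCs called 159 (75 higher, 84 lower) and by edgeR 147 (87 higher, 60 lower). It called 1714 with array weights, 1180 with DESeq2, 2246 with all 16 libraries in 1 fit, 0 without G and H, 2 with the muscle covariate, 1381 without B and F, 51 with Xist as a covariate, and 0 (without B) to 2261 (without F) with 1 library left out. In OBs it called 4, and 16 with quantile normalization, 75 with array weights, 191 with DESeq2, 24 in 1 fit, 254 with the stroma covariate, 88 without E and F, 7 with Xist, and 3 to 108 with 1 library left out. Between populations of deficient mice 8761 were called, and 5003 with the muscle covariate. The difference of effects called 2 genes, 0 with a pseudocount of 5 and without OB E and F, 4 without a filter, 1 with a filter of 50, edgeR or the muscle covariate, 140 with array weights, 142 with DESeq2, and 0 to 571 with 1 library left out.

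None of the differences whose sign turned had passed the test, and the cause was not tested. In MSCs, Acta2 was -0.68 without G and H, -0.31 with the muscle covariate and -0.058 without B and F, Tagln -0.53 and -0.18 in the former pair, Des -0.95 and -0.59, and Cnn1 -0.52 without G and H. Myh11 was 0.51 with array weights and 0.14 with edgeR and with DESeq2. Mcam was 0.25 with array weights, 0.00056 with edgeR, 0.0032 with DESeq2, 0.063 without B and F and 0.039 with Xist, and Pdgfrb -0.031 without B and F. In OBs, Cnn1 was -0.14 with array weights and Rgs5 0.43 with edgeR. Members without an adjusted p from DESeq2 there were left out for that alternative. Myh11 was 0.25 between populations of deficient mice with the muscle covariate. For the difference of effects, array weights gave Myh11 -0.074, Des -0.16 and Cnn1 -0.70, and Cnn1 was -0.20 without OB E and F. With 1 library left out, the ranges that crossed 0 in MSCs were Pdgfrb -0.067 to 0.14, Myh11 -1.27 to 0.84, Acta2 -0.37 to 0.48, Tagln -0.25 to 0.71, Des -0.30 to 0.83, Cnn1 -0.51 to 0.76 and Mcam -0.67 to 0.45. In OBs they were Myh11 -0.083 to 1.29, Cnn1 -0.054 to 1.17 and Rgs5 -0.79 to 0.18, and for the difference Cspg4 -0.46 to 0.31, Myh11 -0.18 to 1.93 and Cnn1 -0.29 to 1.22.

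With the replicate block, 10 members and 10216 genes were called in wild-type mice, 10 and 8978 in deficient mice, and 0 and 3 for the difference. It changed no call of a member other than Myh11 and Mcam in deficient mice. The OB comparison had no library apart in skeletal muscle markers to leave out, so that alternative was not run there. The low level of Kcnj8 in OBs, at 1 to 29 reads, limits its results there, although OB libraries were the deeper ones.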

Other observations

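Endothelial markers are genes of the cells that mural cells wrap. Of 12, 6 were higher and 3 lower in wild-type OBs, where 34.4% and 35.5% of all genes were. Pecam1, a membrane protein of endothelium that some blood cells also carry, was at 462 ± 147 in wild-type MSCs and 2827 ± 76.7 in wild-type OBs (n = 4 each). Cdh5, the endothelial cadherin, went the other way, at 172 ± 117 and 30.6 ± 13.2. Of 8 erythroid markers 8 were higher in OBs of both genotypes (median log2 fold change 1.99 in wild-type and 2.13 in deficient mice). The shares of all genes called higher were 34.4% in wild-type and 29% in deficient mice. What these levels mean for the makeup of the sorted populations was not tested.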
